A study of Mus musculus with 18 samples.

Results

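The 10 genes described here mark tissue macrophages or the states that macrophages take up in a tumor: Adgre1, Csf1r, Cd68, Mrc1, Cd163, Arg1, Nos2, Trem2, Apoe and Spp1. They were chosen by name, with earlier results of these data known, from the 41079 genes of the expression table, and all 10 were found in it. RNA was sequenced from 18 subcutaneous tumors of the mouse melanoma line B16F10, grown in female C57BL/6 mice, with 3 tumors in each of 6 groups. Every tumor was injected directly every 2 days from day 6, at a volume of about 50 mm3, and was taken 48 h after the last dose. The PBS group received buffer. Free PS473 received a pistol ribozyme, a small self-cleaving RNA redesigned to cut the mRNA of PD-L1, and PS473@CPs received that ribozyme with cationic polymers. NKMOF-101-[Mn] received the manganese framework with nothing inside it and is called the empty framework below. M5@NKMOF-101-[Mn] received the framework loaded with M5, a mutant ribozyme that cannot cut, and PS473@NKMOF-101-[Mn] received the framework loaded with PS473. The sample titles of the last group carry another framework number, and its treatment description was followed. The labels do not say whether tumors of a group came from separate animals, so p-values measure the spread between these tumors.

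Macrophages are phagocytes that enter tumors as blood monocytes or derive from resident cells, and they depend on signals through the CSF1 receptor for survival. Exposure to interferon and microbial products drives a state marked by Nos2, whereas interleukin 4, glucocorticoids and wound signals drive states marked by Mrc1, Cd163 or Arg1. Macrophages that take up lipid and cell debris are marked by Trem2, Apoe and Spp1. Apoe, Spp1 and Gpnmb are also made by melanoma cells themselves. In RNA from a whole tumor, fewer macrophages and less RNA per macrophage cannot be told apart.

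The promoters of 6 of the 10 genes were in the RefSeq promoter table used here (build GRCm38.p6). Those of Cd68, Trem2 and Mrc1 are shown, whose levels in empty framework tumors stood clear of another group's. Cd163 also stood clear of another group, and its promoter is not shown. GAGGAA is the core of the sites bound by PU.1 (gene Spi1), the transcription factor that sets macrophage identity. It was searched on both strands, so as GAGGAA or its reverse complement TTCCTC, and matches are in capitals. The stretches are the 250 bases before the start of the gene, at chr11:69666171-69666420 on the minus strand for Cd68, chr17:48346151-48346400 on the plus strand for Trem2 and chr2:14229164-14229413 on the plus strand for Mrc1.
Cd68: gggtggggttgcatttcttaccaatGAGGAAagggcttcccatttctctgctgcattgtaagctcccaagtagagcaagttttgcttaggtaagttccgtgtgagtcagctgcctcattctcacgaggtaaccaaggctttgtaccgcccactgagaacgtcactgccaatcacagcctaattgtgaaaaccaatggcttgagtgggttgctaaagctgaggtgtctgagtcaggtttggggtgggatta
Trem2: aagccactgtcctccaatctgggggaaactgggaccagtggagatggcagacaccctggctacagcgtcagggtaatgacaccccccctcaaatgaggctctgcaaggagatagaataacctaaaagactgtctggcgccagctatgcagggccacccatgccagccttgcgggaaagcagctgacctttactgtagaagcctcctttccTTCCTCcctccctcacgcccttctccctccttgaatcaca
Mrc1: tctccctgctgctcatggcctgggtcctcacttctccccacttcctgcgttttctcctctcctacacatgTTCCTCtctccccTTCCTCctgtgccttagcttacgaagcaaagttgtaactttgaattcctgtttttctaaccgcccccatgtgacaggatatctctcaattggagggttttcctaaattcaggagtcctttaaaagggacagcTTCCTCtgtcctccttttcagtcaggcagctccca
The match in Cd68 began 225 bases before the start and that in Trem2 40 bases before it. Mrc1 had 3 matches, at 180, 167 and 35 bases before the start. Cd163 had 0 matches. For Spp1 and Apoe the count was 1 or 0, depending on the start. The motif occurred in 23.3% of 32851 promoters of the same length, and 0.429% held 3 or more matches. A match is a string of letters and not a bound site. The starts used for Cd68 and Mrc1 are RefSeq starts that are not transcript starts in GENCODE.

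The values are FPKM, the fragments of a gene per kilobase of its length and per 1000000 fragments assigned to genes, so levels can be compared between genes. The depth, recovered from the steps between low values, was 17.21 to 28.4 M fragments per tumor (M, 1000000). Cd274, the gene of PD-L1, had 9.74 to 32.9 FPKM with PS473@NKMOF-101-[Mn] and 12.3 to 21.5 FPKM in the PBS tumors, so these groups overlapped in the targeted mRNA. Tumors also differed in how much skin they contained. A skin score, taken as the average log2(FPKM + 1) over 11 epithelial genes, was 0.22 to 0.32 in 8 tumors and 1.13 to 6.81 in the other 10, and every group held tumors of both kinds. Krt14, a keratin of basal keratinocytes, was listed at 0 in 5 tumors and reached 2058 FPKM in another. Ptprc, the gene of the leukocyte marker CD45, was detected in every tumor at 0.745 to 6.12 FPKM.

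Apoe was the most abundant of the 10 genes, with a mean of 193.9 FPKM over the 18 tumors. Spp1 followed at 35.1 FPKM and Cd68 at 25.9 FPKM, then Arg1, Csf1r, Trem2, Adgre1 and Mrc1 at 9.66, 6.54, 5.86, 5.07 and 4.83 FPKM. Nos2 at 0.98 FPKM and Cd163 at 0.40 FPKM lay below the minimum mean of 1 FPKM that was required for testing, so 8 members were tested. Arg1 varied most, over a range of 5.22 on the log2(FPKM + 1) scale, and Apoe least, over 0.90. The median gene tested varied over 0.66. Differences between group means held 54.0% of the variance of Cd68, 44.6% of that of Mrc1 and 44.4% of that of Adgre1, against 23.3% for the median gene tested. Nos2, Csf1r, Trem2, Spp1 and Apoe had 41.8% to 30.4%, and Arg1 at 21.8% and Cd163 at 19.9% were below the median gene. In the order of the group means, each pair of neighbouring groups overlapped for every one of the 10 genes.

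**Figure D1:**
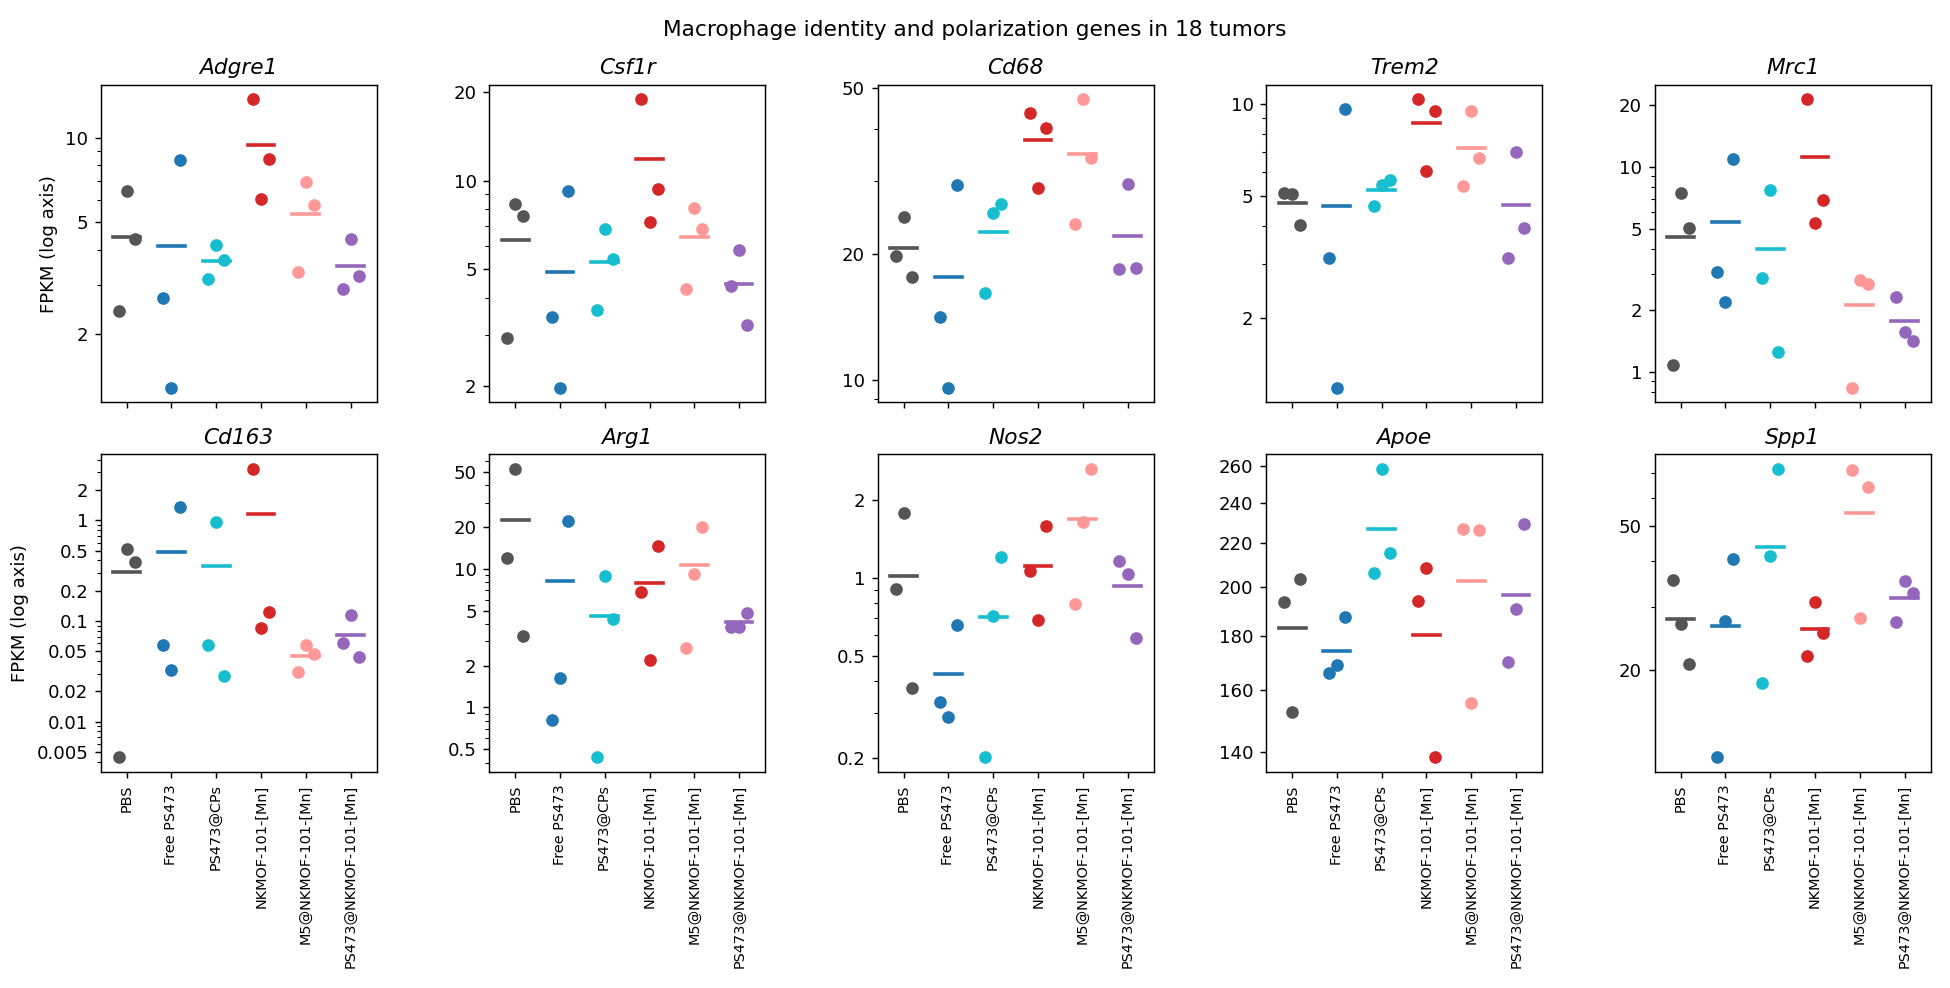
Level of each gene in FPKM (log axis) in the 18 tumors by group. Points are tumors and bars are group means of 3 tumors. Csf1r reached 18.9 FPKM in an empty framework tumor, Arg1 spanned 0.436 to 52.5 FPKM, and Apoe stayed between 138 and 258 FPKM.

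Adgre1, Csf1r and Cd68 were highest on average in the empty framework tumors. Adgre1 encodes F4/80, the surface protein most used to recognise mouse macrophages. It had 13.7, 6.05 and 8.42 FPKM in the empty framework tumors. In the PBS tumors it had 2.42, 6.48 and 4.37 FPKM. In the Free PS473 tumors it had 2.68, 1.29 and 8.36 FPKM. The empty framework tumors therefore overlapped with both groups, through 1 high tumor in each of them. In the PS473@CPs tumors Adgre1 had 3.14, 4.15 and 3.67 FPKM. In the M5@NKMOF-101-[Mn] tumors it had 3.34, 6.96 and 5.76 FPKM, and with PS473@NKMOF-101-[Mn] 2.89, 4.36 and 3.22 FPKM. All empty framework tumors lay above all PS473@CPs tumors and all PS473@NKMOF-101-[Mn] tumors. Of genes tested, 4.78% did so against PS473@CPs and 5.5% against PS473@NKMOF-101-[Mn]. The mean was 9.39 ± 3.92 FPKM (SD, n = 3) with the empty framework and 4.42 ± 2.03 FPKM (SD, n = 3) with PBS.

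Csf1r encodes the receptor for the growth factors CSF1 and interleukin 34. Its levels were 18.9, 7.27 and 9.37 FPKM in the empty framework tumors. The PBS tumors had 2.92, 8.34 and 7.59 FPKM. The Free PS473 tumors had 3.44, 1.98 and 9.26 FPKM. Tumor 1 of the empty framework group stood apart, at more than the highest value of any other group. Csf1r had 3.64, 6.88 and 5.41 FPKM with PS473@CPs. It had 4.28, 8.09 and 6.89 FPKM with M5@NKMOF-101-[Mn] and 4.38, 5.81 and 3.22 FPKM with PS473@NKMOF-101-[Mn]. These last 2 groups received the same carrier as the empty framework tumors, and the PS473-loaded one lay wholly below them, as for 5.5% of genes tested. The ligand Csf1 had 7.42, 4.32 and 6.56 FPKM in the empty framework tumors and 4.05, 4.39 and 4.29 FPKM in the PBS tumors, and the ligand Il34 had a mean of 0.54 FPKM over all tumors.

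Cd68, a glycoprotein of the lysosome in phagocytes, was the most abundant of the identity genes. It had 43.5, 28.8 and 40.1 FPKM in the empty framework tumors. The PBS tumors had 19.9, 24.7 and 17.7 FPKM, and the 2 groups did not overlap, as for 4.52% of genes tested in that direction. With M5@NKMOF-101-[Mn] it had 23.6, 47.0 and 33.9 FPKM, about as high as with the empty framework. With PS473@NKMOF-101-[Mn] it had 18.5, 29.5 and 18.5 FPKM. The PS473@CPs tumors had 16.2, 25.1 and 26.5 FPKM and the Free PS473 tumors 14.1, 9.60 and 29.3 FPKM. Of these only the PS473@CPs tumors lay wholly below the empty framework tumors, as for 4.78% of genes tested. The moderated F test of limma over the 6 groups gave Cd68 an unadjusted p of 0.033 and an adjusted p of 1.00. Cd68 was the 1 member of 8 with an unadjusted p under 0.05 in that test, against 1.99% of all genes tested.

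Trem2 encodes a receptor for lipids on macrophages. It had 10.4, 6.05 and 9.53 FPKM in the empty framework tumors. In the PBS tumors it had 5.12, 5.10 and 4.02 FPKM. The M5@NKMOF-101-[Mn] tumors had 5.39, 9.47 and 6.66 FPKM. Both framework groups lay wholly above PBS for Trem2, although tumor 1 of the M5 group did so by a small margin. With the empty framework, 4.52% of genes tested lay wholly above PBS. Trem2 was the 1 member not overlapping with PBS in the M5 group, where 4.75% of genes tested did not overlap in that direction. The PS473@NKMOF-101-[Mn] tumors had 3.15, 6.99 and 3.93 FPKM and overlapped with PBS. Trem2 had 4.64, 5.45 and 5.66 FPKM with PS473@CPs and 3.16, 1.19 and 9.61 FPKM with Free PS473, where tumor 3 was high and tumor 2 was the lowest of all 18 for Trem2, Adgre1, Csf1r and Cd68.

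Mrc1 and Cd163 encode scavenger receptors, CD206 for mannose-bearing glycoproteins and CD163 for haptoglobin bound to haemoglobin. Mrc1 had 21.4, 5.34 and 6.91 FPKM in the empty framework tumors. With the loaded frameworks it had 0.836, 2.82 and 2.69 FPKM for M5 and 2.33, 1.57 and 1.42 FPKM for PS473. All 6 tumors with a loaded framework thus lay below all 3 tumors with the empty one. Of all genes tested, 10.5% were wholly lower with M5 than with the empty framework, and 5.5% with PS473 in the framework. The share wholly lower with both was not counted. Markers of other cells differed in the same direction. All 7 fibroblast genes tested were above 0 in the empty framework tumors against M5 (median 1.16) and against PS473 in the framework (median 0.84), as were all 5 endothelial genes (medians of 0.91 and 0.69). Of the 12357 genes tested, 7406 were above 0 against M5 and 7623 against PS473 in the framework. The mean log2(FPKM + 1) of the fibroblast list was 3.27 to 4.97 with the empty framework, 2.47 to 2.84 with M5 and 2.60 to 3.92 with PS473, so it did not overlap with M5. That of the endothelial list was 1.53 to 2.70, 0.80 to 1.64 and 1.19 to 1.51 in the same order. The part of these cells in Mrc1 was not tested. The groups without the framework were spread more widely. Mrc1 had 1.08, 7.47 and 5.05 FPKM with PBS, 3.06, 2.19 and 10.9 FPKM with Free PS473 and 2.89, 7.76 and 1.25 FPKM with PS473@CPs, and each overlapped with the empty framework. Cd163 had 3.23, 0.086 and 0.12 FPKM in the empty framework tumors. It had 0.031, 0.057 and 0.047 FPKM with M5@NKMOF-101-[Mn] and 0.060, 0.114 and 0.043 FPKM with PS473@NKMOF-101-[Mn]. Cd163 was thus near the limit of detection in most tumors with a framework, at 3 to 13.5 fragments in the loaded ones. The largest values elsewhere were 0.52 FPKM in a PBS tumor, 1.36 FPKM in a Free PS473 tumor and 0.97 FPKM in a PS473@CPs tumor.

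The skin score stood beside these 2 receptors and beside other members. Tumor 1 of the empty framework group, the highest for Mrc1 and Cd163, had a skin score of 5.54, and the other tumors of that group had 0.23 and 2.14. Csf1r and Adgre1 were also highest in tumor 1 of that group. PBS tumors had 0.26, 6.31 and 5.36, Free PS473 tumors 0.22, 0.27 and 3.39, and PS473@CPs tumors 0.22, 6.81 and 2.52. Within each of these 3 groups, the tumor highest in Mrc1 was the one with the highest skin score. The same tumor was also the highest of its group in Csf1r, Adgre1 and Arg1. For Mrc1 the loaded framework tumors did not share this order, with scores of 0.26, 0.32 and 4.15 for M5 and 0.27, 4.07 and 1.13 for PS473. There the tumor with the highest score was highest in Arg1 with M5, and in Csf1r and Adgre1 with PS473. Among the 8 tumors with a skin score under 0.5 was 1 empty framework tumor, and its Mrc1 of 5.34 FPKM was above the other 7, which had 0.836 to 3.06 FPKM. In the same 8 tumors its Csf1r of 7.27 FPKM exceeded 6 of the other 7, which reached 8.09 FPKM. For Mrc1, Adgre1, Csf1r, Cd68 and Trem2, a fit with this score as a covariate is given below. Cd163 was not in that fit, and the part of skin in its level was not tested.

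**Figure D2:**
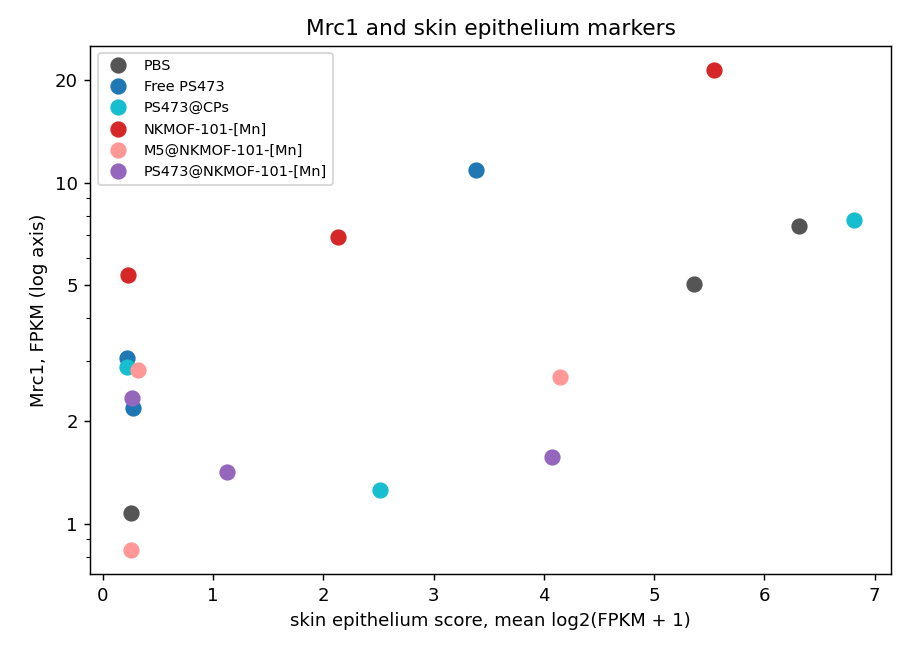
Level of Mrc1 in FPKM (log axis) against the skin score (average log2(FPKM + 1) over 11 epithelial genes), 1 point per tumor. Skin-rich and skin-poor tumors occur in every group, and the empty framework tumor with a score of 0.23 has 5.34 FPKM of Mrc1, above the 7 other tumors with a score under 0.5.

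Arg1 and Nos2 encode enzymes that compete for arginine: arginase 1 splits it to ornithine and urea, and the inducible nitric oxide synthase turns it into nitric oxide. Arg1 had 11.9, 52.5 and 3.29 FPKM in the PBS tumors. It had 6.82, 2.20 and 14.6 FPKM with the empty framework. It had 2.70, 9.20 and 19.9 FPKM with M5@NKMOF-101-[Mn]. The groups overlapped broadly, and a single PBS tumor, with a skin score of 6.31, had the highest level of all. With PS473@NKMOF-101-[Mn] the 3 tumors were close together, at 3.82, 3.83 and 4.80 FPKM. Free PS473 tumors had 0.808, 1.62 and 22.1 FPKM, and PS473@CPs tumors 0.436, 8.84 and 4.34 FPKM. Nos2 was low in every tumor. It had 1.06, 0.686 and 1.59 FPKM with the empty framework, 0.791, 1.64 and 2.64 FPKM with M5@NKMOF-101-[Mn] and 1.17, 1.04 and 0.587 FPKM with PS473@NKMOF-101-[Mn]. It had 0.907, 1.78 and 0.374 FPKM with PBS, 0.33, 0.29 and 0.655 FPKM with Free PS473 and 0.202, 0.711 and 1.20 FPKM with PS473@CPs. The empty framework tumors lay wholly above the Free PS473 tumors for Nos2, and for no other member. This was so for 3.99% of genes tested, of which Nos2 was not 1. In fits with a lower minimum of 0.1 FPKM, the log2 fold change of Nos2 in that comparison was 0.56, with an unadjusted p of 0.081 and an adjusted p of 1.00 from limma.

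Apoe, a lipid carrier, and Spp1, the secreted matrix protein osteopontin, did not follow the identity genes. Apoe lay between 138 and 258 FPKM in all 18 tumors. Its mean was 226.5 ± 27.9 FPKM (SD, n = 3) with PS473@CPs, 180.3 ± 37.0 FPKM (SD, n = 3) with the empty framework and 183.1 ± 26.9 FPKM (SD, n = 3) with PBS. All PS473@CPs tumors were above all PBS tumors for Apoe, as were 1.93% of genes tested, and no other member was. Spp1 had 71.7, 27.9 and 64.2 FPKM in the M5@NKMOF-101-[Mn] tumors, whose mean of 54.6 ± 23.4 FPKM (SD, n = 3) was the highest. Its lowest mean, 26.0 ± 4.51 FPKM (SD, n = 3), was in the empty framework tumors, where it ranged from 21.9 to 30.8 FPKM. Gpnmb, a glycoprotein of melanosomes and of macrophages, was present at 761 to 1181 FPKM. The 8 genes of the melanocyte and melanoma list had a mean log2(FPKM + 1) of 8.19 to 8.82 in all tumors.

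The comparison of the empty framework with PBS asks what the carrier does without a ribozyme. The other groups all received a ribozyme, and Free PS473 and PS473@CPs also lacked the framework, so comparisons with them do not single out the carrier. Of the 8 members tested, 5 had a higher mean log2 level with the empty framework than with PBS: Adgre1 by 0.94 ± 0.43 (SE), Csf1r by 0.81 ± 0.45, Cd68 by 0.82 ± 0.34, Trem2 by 0.72 ± 0.42 and Mrc1 by 1.13 ± 0.64. These and all further fold changes are log2 differences of FPKM + 1, which understate the change of low genes. Arg1 differed by -0.98 ± 1.06, Apoe by -0.03 ± 0.18 and Spp1 by -0.07 ± 0.48, so all 3 were within their error. No member passed limma's test at an adjusted p under 0.05 with a more than 2-fold change, in which 0% of genes tested passed, and all adjusted p-values of members rounded to 1.00. Adgre1 and Cd68 had unadjusted p-values of 0.044 and 0.031 in limma, and these 2 of 8 members under 0.05 compare with 1.15% of all genes tested that were higher. The groups did not overlap for Cd68 and Trem2, against 4.52% of genes tested. The median over the 8 members was 0.77, and over all genes tested 0.03.

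The same 5 genes were higher than the mean of the other 5 groups. The log2 difference was 1.02 ± 0.33 (SE) for Adgre1, 0.97 ± 0.35 for Csf1r, 0.71 ± 0.27 for Cd68, 0.68 ± 0.32 for Trem2 and 1.42 ± 0.50 for Mrc1. Arg1 differed by 0.12 ± 0.82, Apoe by -0.13 ± 0.14 and Spp1 by -0.34 ± 0.37. The unadjusted p was 0.0079 for Adgre1, 0.014 for Csf1r, 0.017 for Cd68 and 0.012 for Mrc1 in limma, and 0.053 for Trem2. These 4 of 8 members compare with 1.48% of all genes tested, and all 8 adjusted p-values rounded to 1.00. The 4 members also moved together over the tumors, as given below. Counts of them, here and in the other comparisons, are therefore not counts of separate results. No member separated the 3 empty framework tumors from all 15 others, and 0.113% of genes tested did so upward. The median was 0.70 over the members and 0.03 over all genes tested.

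**Figure D3:**
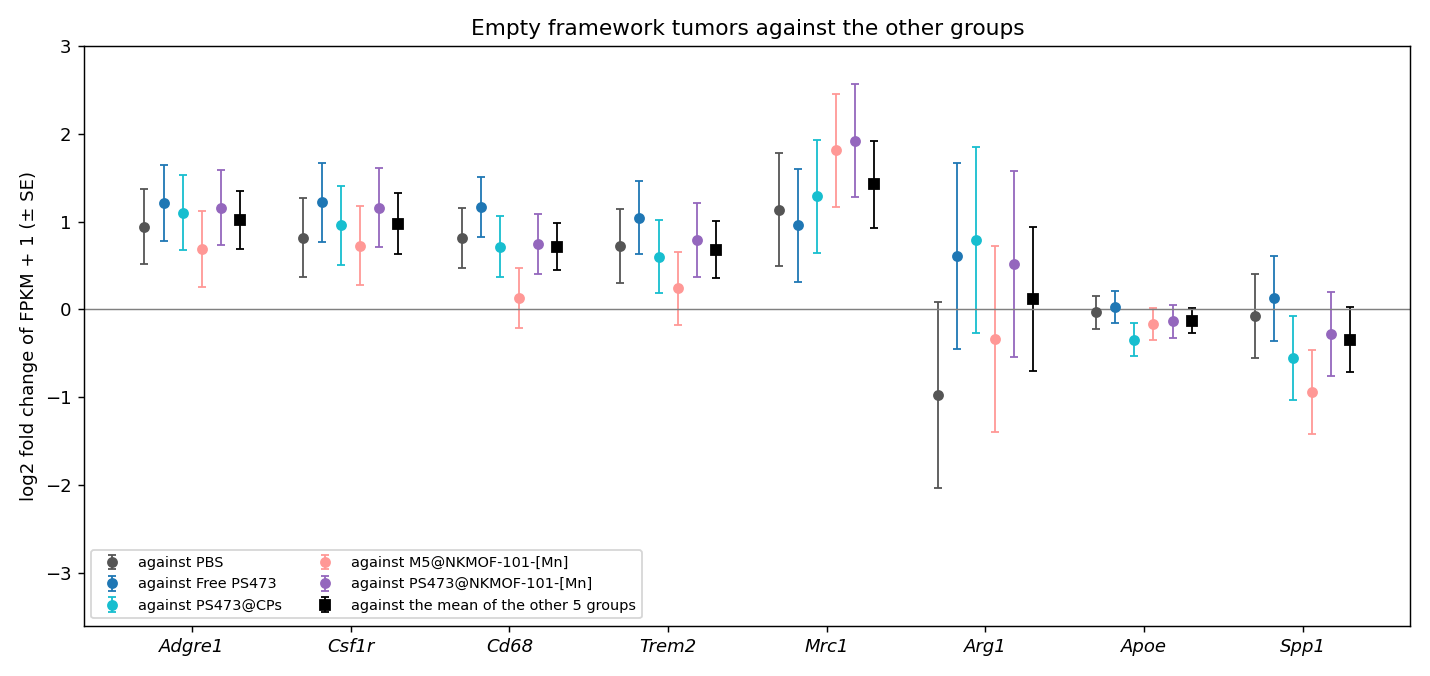
Log2 fold change of FPKM + 1 in the empty framework tumors against each other group (circles) and against the mean of the other 5 groups (squares), with bars of 1 SE, for the 8 members tested. Adgre1, Csf1r, Cd68, Trem2 and Mrc1 lie above 0 in every comparison (Cd68 by 0.13 against the M5-loaded framework), and Apoe and Spp1 lie close to or below 0.

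Against each of the other groups the order of the genes changed. With Free PS473 as the reference, the largest log2 differences were 1.22 for Csf1r, 1.21 for Adgre1, 1.16 for Cd68 and 1.04 for Trem2, and these 4 had unadjusted p-values of 0.0041 to 0.025 in limma, against 2.05% of genes tested. All 8 members tested overlapped there, while 3.99% of genes tested did not overlap in that direction. Nos2, which was not tested, did not overlap. With PS473@CPs, Adgre1 at 1.10 (unadjusted p = 0.022 in limma, 1.32% of genes tested) was the 1 such member, and Adgre1, Csf1r, Cd68 and Trem2 did not overlap, against 4.78% of genes. With M5@NKMOF-101-[Mn], which differs from the empty framework by its cargo, the differences in Cd68 and Trem2 were only 0.13 and 0.24. Mrc1 in contrast was 1.81 ± 0.64 higher with the empty framework (unadjusted p = 0.013 in limma, 2.2% of genes tested). It was the 1 member of the 8 tested that did not overlap, a share near the 10.5% of genes tested. Cd163, which was not tested, did not overlap either, at 10.75 or more fragments against at most 6.5 with M5. With PS473@NKMOF-101-[Mn], Adgre1, Csf1r, Cd68 and Mrc1 were higher by 1.16, 1.16, 0.74 and 1.92 (unadjusted p of 0.017, 0.022, 0.047 and 0.0095 in limma, 1.8% of genes tested). Adgre1, Csf1r and Mrc1 did not overlap there, against 5.5% of genes. No adjusted p-value of a member was below 0.99 in these 4 comparisons, which share the empty framework tumors.

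The direction of these 5 genes against the mean of the other groups did not rest on tumor 1 of the empty framework group, but their size did in part. Without that tumor the difference was 0.74 for Adgre1, 0.61 for Csf1r, 0.60 for Cd68, 0.55 for Trem2 and 0.87 for Mrc1, and the unadjusted p-values in limma were 0.076 to 0.19. Against PBS, the difference in Mrc1 dropped from 1.13 to 0.58 and that in Csf1r from 0.81 to 0.45. Leaving out tumor 1 of the PBS group, the lowest of that group for both genes, lowered them as far, to 0.54 for Mrc1 and 0.42 for Csf1r. With the skin score as a covariate, a fit chosen after the data were seen, the differences from PBS were larger, at 1.15 for Adgre1, 1.06 for Csf1r, 0.94 for Cd68, 0.84 for Trem2 and 1.48 for Mrc1, and none passed the adjusted threshold. When tumors were weighted by how well they fitted their group, the comparison with Free PS473 called Adgre1, Csf1r, Cd68, Trem2 and Mrc1 (adjusted p of 0.0026 to 0.025 in limma, with 2.29% of genes called). The estimate of these weights did not converge, and gave tumor 1 of Free PS473 a weight of 17.1 and tumor 3 one of 0.27. With weights estimated gene by gene, those of the same tumors were 3.90 and 0.31, and Adgre1, Csf1r, Cd68 and Trem2 were called (adjusted p of 0.027 to 0.036 in limma, with 1.02% of genes called). In the F test over all groups, the unconverged weights called 6 members (Adgre1, Csf1r, Cd68, Mrc1, Trem2 and Spp1) among 18.7% of genes, and the gene by gene weights called no member (adjusted p of at least 0.11 in limma) among 47 genes. Tumor 3 of Free PS473 held the highest levels of these 4 genes and of Mrc1 in its group.

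The loaded frameworks were compared with each other, which asks what the active ribozyme adds to the inactive one. All 8 members tested had a lower mean log2 level with PS473@NKMOF-101-[Mn] than with M5@NKMOF-101-[Mn], with a median of -0.51. Below 0 were also 6592 of the 12357 genes tested, with a median of -0.01. The largest differences were in Arg1 (-0.85 ± 1.06), Spp1 (-0.66 ± 0.48), Cd68 (-0.61 ± 0.34) and Trem2 (-0.55 ± 0.42), and Mrc1 differed by -0.11 ± 0.64. The smallest unadjusted p of a member was 0.096, for Cd68, and every adjusted p rounded to 1.00 in limma. Against PBS, M5@NKMOF-101-[Mn] had higher Cd68 (0.68 ± 0.34), Spp1 (0.87 ± 0.48) and Trem2 (0.48 ± 0.42) and lower Mrc1 (-0.68 ± 0.64), all short of an unadjusted p of 0.05. PS473@NKMOF-101-[Mn] differed from PBS by 0.07 ± 0.34 in Cd68, -0.34 ± 0.45 in Csf1r, -0.79 ± 0.64 in Mrc1 and -1.49 ± 1.06 in Arg1. Free PS473 and PS473@CPs differed from PBS by at most 0.48 in any member except Arg1, which differed by -1.59 ± 1.06 and -1.77 ± 1.06.

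A further contrast asks whether PS473 changed a gene by a different amount with the framework than without it. Mrc1 was 1.92 higher on the log2 scale with the empty framework than with the PS473-loaded one, and 0.18 higher with Free PS473 than with PBS. The difference of the changes was -2.10 ± 0.91 (SE), with an unadjusted p of 0.036 and an adjusted p of 1.00 in limma. Mrc1 was the 1 member of 8 with an unadjusted p under 0.05 in this direction, against 2% of genes tested. The other 7 differed by between -0.89 (Adgre1) and 1.08 (Arg1).

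Across the 13 tests described (10 pairs of groups, the mean of 5 groups, the interaction and the F test), limma called 0 of the 12357 genes tested, members included. Its smallest adjusted p for any gene was 0.82. At an unadjusted p under 0.05, with a fold of any size, 73 to 380 genes were found in each. limma's voom on the recovered fragments called 0 genes as well, with 8 to 233 at an unadjusted p under 0.05 (more than 2-fold except in the F test).

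Over the 18 tumors, the identity genes moved together. Pearson's r with Csf1r on the log2(FPKM + 1) scale was 0.964 for Adgre1, 0.819 for Cd68, 0.801 for Trem2 and 0.80 for Mrc1, with Spearman's rho of 0.969, 0.748, 0.75 and 0.744. The permutation p was 1e-05, the smallest it can be, for Adgre1, 2e-05 for Cd68, 5e-05 for Trem2 and 8e-05 for Mrc1. The adjusted p over all 12356 relations was 0.0024 for Adgre1, 0.0031 for Cd68, 0.0057 for Trem2 and 0.0076 for Mrc1 (two-sided permutation tests, 100000 resamples). The adjusted p of the 4 rho values was 0.0059 to 0.026 in the same kind of permutation test. Positive relations at this level were found for 3.53% of genes and negative ones for 0.494%. The relations were also present inside the groups, since r after subtraction of the group means was 0.949, 0.809, 0.734 and 0.869. Without the 2 tumors farthest from the median of Csf1r, at 18.9 and 1.98 FPKM, r was 0.928 for Adgre1 (adjusted p = 0.021 in the permutation test). For Cd68, Trem2 and Mrc1 it was 0.721, 0.687 and 0.745, with adjusted permutation p-values of 0.12, 0.15 and 0.095, so their calls rested on those tumors. Ptprc was related to Csf1r with r = 0.809 and Csf1 with r = 0.759, at adjusted permutation p-values of 0.0057 and 0.018 that became 0.089 and 0.21 without those tumors.

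**Figure D4:**
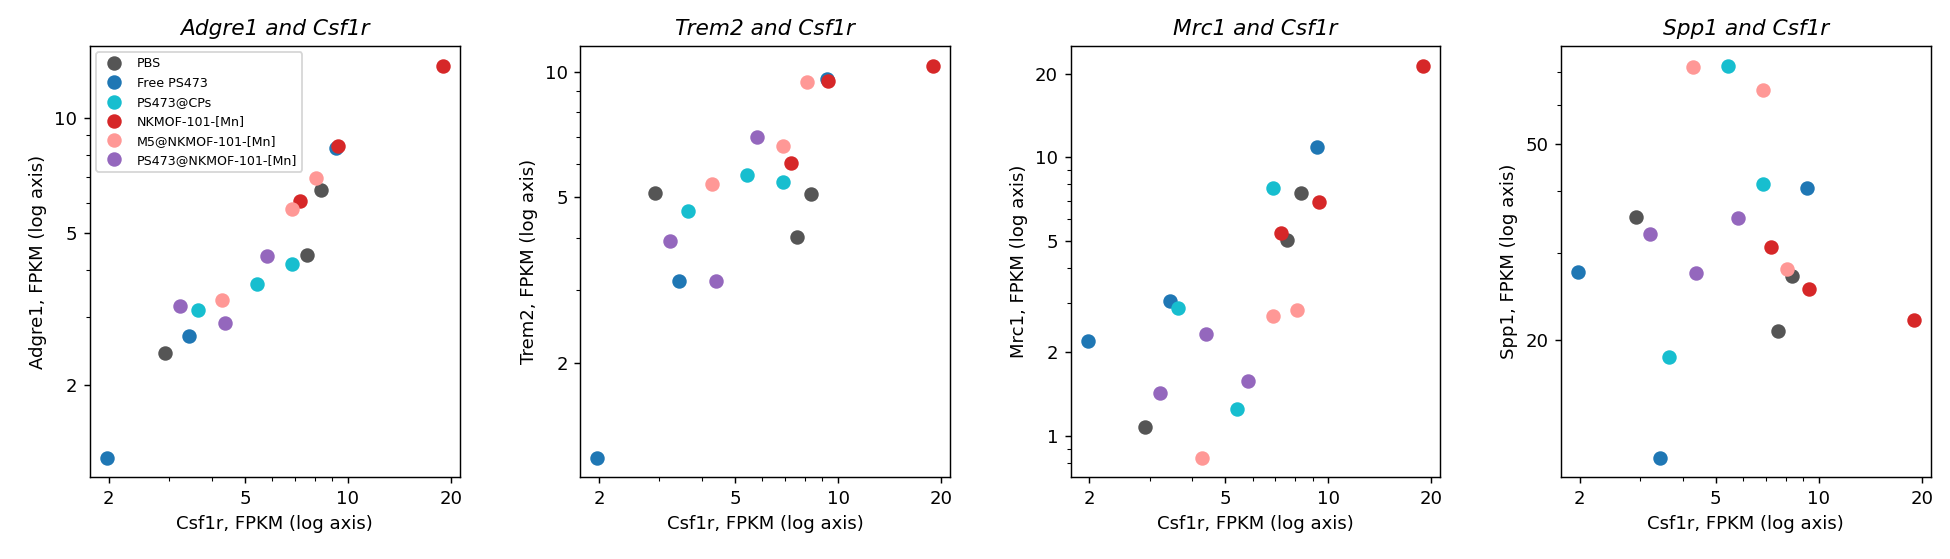
Adgre1, Trem2, Mrc1 and Spp1 against Csf1r in FPKM (both axes log), 1 point per tumor and coloured by group. Adgre1 (r = 0.964) lies on a narrow band that all groups share, and Spp1 (r = 0.0034) shows no trend. The points of both loaded frameworks lie low in Mrc1 for their Csf1r. So do PS473@CPs tumor 3 and PBS tumor 1, with Mrc1 over Csf1r of 0.231 and 0.368.

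Apoe and Spp1 had no such relation with Csf1r, with r of -0.111 and 0.0034 and adjusted permutation p-values of 0.89 and 1.00. Arg1 had r = 0.506 with an adjusted permutation p of 0.23. The same measure was then taken for Mrc1, Arg1 and Spp1, a choice made after the data were seen, over the genes tested plus Cd163 and Nos2. Cd163 was related to Mrc1, with r = 0.857, rho = 0.901 and adjusted permutation p-values of 0.0069 and 0.013. That r was 0.72 without the 2 tumors highest in Mrc1 and 0.844 with group means subtracted. Mrc1 was related less to Cd68 (r = 0.41) and Trem2 (r = 0.452), neither of which passed (adjusted permutation p of 0.36 and 0.29). Arg1 and Nos2, the markers of opposite states, had a positive r of 0.733 and rho of 0.697, with adjusted permutation p-values of 0.058 for both. The r was 0.829 without PBS tumor 2 and Free PS473 tumor 3 and 0.82 with group means subtracted. Spp1 had r = 0.516 with Apoe and an adjusted permutation p of 0.37.

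The genes most like each member by r, given as a description, differed between these groups of members. For Csf1r they were Adgre1, Prex1, Vsir, Cd300ld and Laptm5, with r of 0.922 to 0.964. For Trem2 they were the complement genes C1qb (0.963) and C1qa (0.941), the receptors C3ar1 (0.957) and Fcgr1 (0.95), and Cd68 (0.94). For Mrc1 they were Stab1 (0.974), a scavenger receptor, F13a1 (0.928), Cd93 (0.91), Cbr2 (0.892) and Nid1 (0.883). For Arg1 they were the metalloproteinase genes Mmp13 (0.926) and Mmp12 (0.878), the stress genes Ndrg1 (0.908) and Hmox1 (0.866), and Csnk1a1 (0.862). Mmp12 was also among the 5 most like Nos2 (0.834), after Stat3 (0.879) and Plekha2 (0.87) and before Camk2d (0.824) and Inafm2 (0.819). For Spp1 they were Abhd12 (0.839), Cited1 (0.788), Tmed10 and Vamp5, and for Apoe Rnasek (0.819), Gtf2b (0.803), Ginm1, Dynlrb1 and Gm40191. None of the genes named for Spp1 and Apoe is a member or on the macrophage identity list.

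The ratio of Mrc1 to Csf1r sets the mannose receptor against a gene common to macrophages and is given as a description, chosen after the levels were seen. It was 1.13, 0.735 and 0.738 in the empty framework tumors. It was 0.195, 0.349 and 0.391 with M5@NKMOF-101-[Mn] and 0.532, 0.27 and 0.441 with PS473@NKMOF-101-[Mn]. Every tumor with a loaded framework was thus below every tumor with the empty framework and every tumor with Free PS473, at 0.889 to 1.18. The PBS tumors had 0.368, 0.896 and 0.666 and the PS473@CPs tumors 0.793, 1.13 and 0.231, and both overlapped with the loaded frameworks. In the other direction, Nos2 over Csf1r was 0.056 to 0.17 with the empty framework, 0.185 to 0.383 with M5 and 0.178 to 0.266 with PS473 in it. Cd68 over Csf1r was 2.3 to 4.28, 4.93 to 5.81 and 4.22 to 5.75 in the same order. Csf1 over Csf1r was 0.392 to 0.701, 0.588 to 1.02 and 0.729 to 1.16. The PBS tumors had 0.0492 to 0.311 for Nos2, 2.33 to 6.81 for Cd68 and 0.526 to 1.39 for Csf1, each over Csf1r. They overlapped with every framework group in each of these ratios. Each ratio divides by Csf1r, which was itself highest on average with the empty framework. How often ratios of other genes separate these groups was not tested. The ratio of Arg1 to Nos2 was 8.82 to 29.5 with PBS, 3.21 to 9.19 with the empty framework, 3.42 to 7.56 with M5@NKMOF-101-[Mn] and 3.27 to 8.19 with PS473@NKMOF-101-[Mn]. It spanned 2.16 to 12.4 with PS473@CPs and 2.45 to 33.7 with Free PS473. Arg1 exceeded Nos2 in all 18 tumors.

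**Figure D5:**
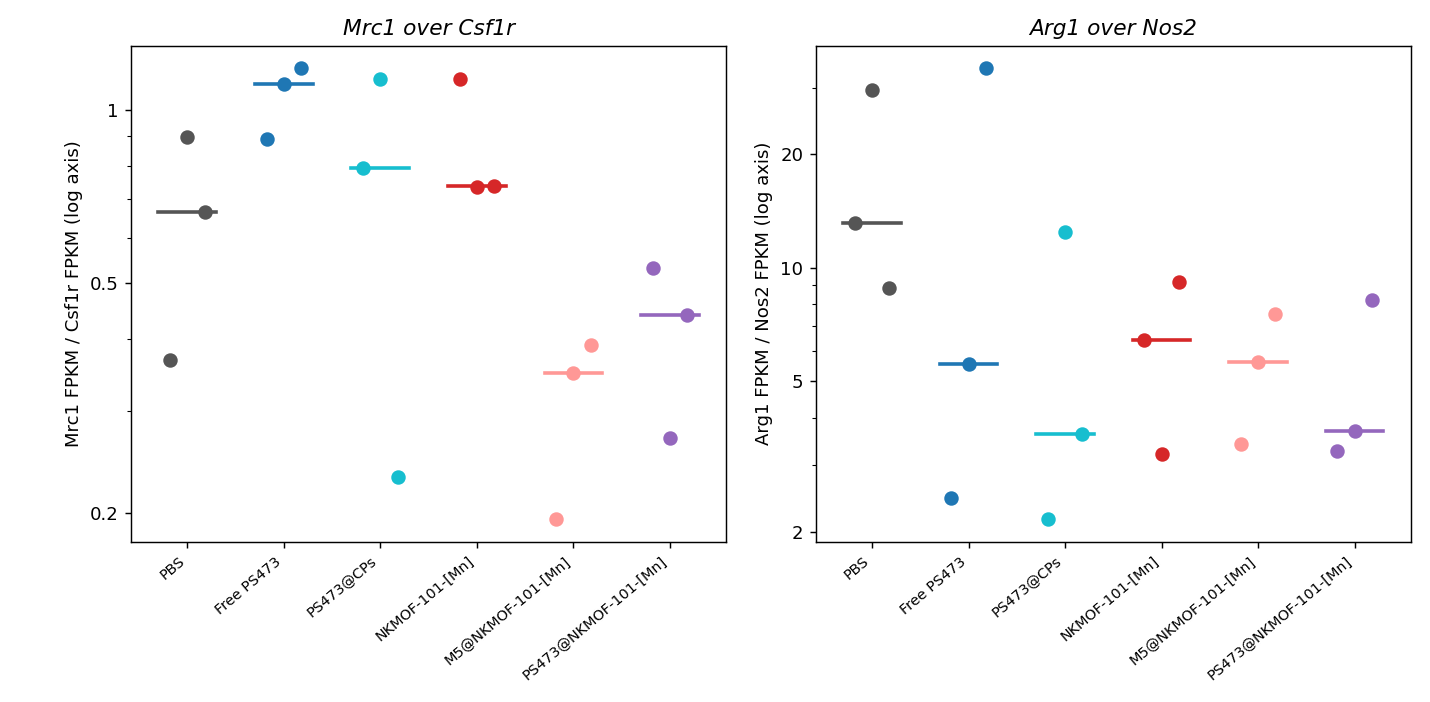
Ratio of Mrc1 to Csf1r (left) and of Arg1 to Nos2 (right), as FPKM over FPKM on log axes, in the 18 tumors. Points are tumors and bars are group medians. Mrc1 over Csf1r is 0.195 to 0.532 in the 6 loaded framework tumors and 0.735 to 1.13 in the empty ones. The PBS tumors (0.368 to 0.896) and PS473@CPs tumors (0.231 to 1.13) overlap with both.

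Other genes of macrophages, on lists written from gene names with earlier results known, were described in the same fits. Of 24 further identity genes, 18 were tested, and 17 were above 0 in the empty framework tumors against PBS, with a median of 0.64 and none called. Of all 12357 genes tested, 7261 were above 0 in this comparison, against which the counts against PBS for each list below are to be read. The largest differences were in Lyz2 (187.9, 90.9 and 64.2 FPKM against 43.0, 46.6 and 50.9 FPKM), which encodes lysozyme, and in C1qa (92.4, 58.8 and 73.0 FPKM against 24.2, 43.7 and 44.4 FPKM), a subunit of complement C1q. Neither overlapped with PBS, as was the case for 4.52% of all genes tested in that direction. Of the CSF1 axis, which includes Csf1r, all 4 genes tested were above 0 with a median of 0.35. The receptor gene Csf2rb differed by 0.30 and Csf2ra by 0.17.

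Genes of alternative activation had a median of 0.65 over the 9 tested, of which 7 were above 0. Folr2, a folate receptor of resident macrophages, differed most, by 1.18 ± 0.42 (SE), with an unadjusted p of 0.014 and an adjusted p of 1.00 in limma. It had 9.31, 2.35 and 2.64 FPKM in the empty framework tumors and 1.68, 0.916 and 1.08 FPKM in the PBS tumors. Stab1 differed by 0.75, Lyve1 by -0.35 and Il4ra by -0.12. Against PS473@NKMOF-101-[Mn], all 9 genes of this list were above 0 in the empty framework tumors with a median of 1.12. Of all 12357 genes tested, 7623 were above 0 there. In PS473@NKMOF-101-[Mn] against PBS, all 9 were below 0 with a median of -0.42, and so were 6621 of the 12357 genes tested. The genes of classical activation had a smaller median of 0.28 against PBS, with 7 of 9 above 0. Of these the chemokine genes Cxcl9 and Cxcl10 had the largest differences, 0.75 and 0.40, and Ptgs2 (-0.49) and Socs3 (-0.25) the lowest. No gene of either list was called.

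In the metabolism of arginine and nitric oxide, which includes Arg1, 3 of 8 genes tested were above 0 with a median of -0.04. Srm, a spermidine synthase, differed by 0.34 and the arginine transporter Slc7a1 by 0.24, and Ass1, which makes the precursor of arginine, by -0.14. Among the genes of lipid-associated macrophages, which include Trem2 and Apoe, 11 of 15 were above 0 with a median of 0.20. Lpl, a lipase, differed by 0.65, and the fatty acid carrier Fabp5 by -0.62 and Cd9 by -0.26. Of the receptors of osteopontin and apolipoprotein E, 6 of 8 were above 0 with a median of 0.09; Itgb3 and Itga4 differed by 0.42 and 0.35, Itgb1 by -0.03 and Cd44 by -0.01. In haemoglobin scavenging, 3 of 5 were above 0 with a median of 0.10, led by the iron exporter gene Slc40a1 (0.40) and the haptoglobin gene Hp (0.32), while Ftl1 and Fth1 of ferritin differed by -0.05 and -0.02. None of these genes was called.

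Markers of other cells were measured in the same tumors. All 6 general leukocyte genes were above 0 in the empty framework tumors against PBS, with a median of 0.61, led by Laptm5 (0.85) and Coro1a (0.62), with Arhgdib at 0.04. Their mean log2(FPKM + 1) was 4.40, 3.88 and 4.23 with the empty framework and 3.46, 3.79 and 3.62 with PBS. The T and NK cell list had a mean of 0.80, 0.64 and 0.62 against 0.41, 0.39 and 0.58. The neutrophil list had 0.97, 0.33 and 0.82 against 0.33, 2.27 and 1.78, which overlapped, and neither of its 2 genes tested, S100a8 and S100a9, was called. Fibroblast genes had 4.97, 3.52 and 3.27 with the empty framework and 2.28, 5.04 and 3.97 with PBS, and in both groups the tumor highest in these genes was highest in Csf1r as well. The mast cell list, with Mcpt4 as its 1 gene tested, had 1.44, 0.41 and 0.18 with the empty framework and 0.03, 1.35 and 0.95 with PBS. The lists of dendritic cells (0.26 to 0.69), B cells (0.19 to 0.68), endothelium (0.80 to 3.02), skeletal muscle (0.34 to 2.16) and adipocytes (0.01 to 1.54) are given as the range over all tumors. The part of these cells in the levels of the members was not tested.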

How the data were processed

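The authors enriched poly(A) RNA from 18 tumors and deposited FPKM values for 41079 genes with 1 length per gene. The submitters' processing notes name mouse build GRCm39; the aligner, counter and annotation are not given in the sources used here. Fragments per tumor were recovered from steps between low values, of which 47.3% to 51.3% were whole numbers (within 0.02 fragments), so no count model was the main test. Values were transformed to log2(FPKM + 1). Genes averaging 1 FPKM or more (12357) entered limma 3.58.1 in R 4.3.3 (6 group means, prior variance with a trend), with Benjamini-Hochberg adjustment over all of them and calls at an adjusted p under 0.05 and more than 2-fold change. The procedure was tested on simulated data. Their noise was drawn independently for each gene, so they did not hold the variation that genes of these tumors share. Relations over tumors used permutation tests in Python 3.11.15 with numpy 2.4.6 and scipy 1.17.1. No tumors held identical values.

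The members and gene lists were chosen with earlier results of these data known. Named genes are the members, the 2 genes of each list that differed most in each direction between the empty framework and PBS, the 5 genes most like a member, and Ptprc, Csf1 and Il34. Cd274, Krt14, Gpnmb and Mcpt4 were named after their values were seen. A few genes that this rule selects are not reported here. Alternatives were a pseudocount of 0.1, looser filters, 2 other scalings, fits of the compared groups alone, no trend, array weights, a replicate block, unadjusted p-values, voom and leaving out each tumor. The skin score as a covariate and gene by gene weights were added after seeing the data.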

Additional observations from a re-analysis of the deposited data

How the results depend on the processing

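No member was called in any of the 13 tests under quantile or upper-quartile scaling, a 0.1 FPKM pseudocount, looser filters, no trend, voom, the skin score as a covariate or with any 1 tumor left out (0 to 0 members), nor in the 11 refitted on the compared groups alone. With an unadjusted p under 0.05 and a more than 2-fold change (no fold in the F test), the empty framework gave 4 members against Free PS473, 1 against PS473@CPs, 1 against M5@NKMOF-101-[Mn], 3 against PS473@NKMOF-101-[Mn] and 2 against the mean of the other 5 groups; the contrast of PS473 effects gave 1 and the F test 1. Over all 12357 genes the same rule gave 95, 25, 44, 37, 12, 62 and 246 in that order. Array weights gave 5 members against Free PS473 and 6 in the F test (18.7% of genes), and gene by gene weights 4 against Free PS473; the cause was not tested. Of the members related to Csf1r, 4 passed in all tumors and 1 without the 2 farthest tumors.

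The replicate numbers do not pair the tumors: deviations of tumors with the same number correlated by -0.73 to 0.72 (median -0.02), and 6 of 18 tumors were closest to their own number. The replicate block called 0 members.

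Small differences changed sign. For Apoe against PBS this was 0.0058 with quantile normalization and 0.011, 0.047 and 0.15 without PBS tumor 1, PBS tumor 3 or empty framework tumor 3 (0.048 against the mean of the other groups without the last), over ranges of -0.16 to 0.15 and -0.25 to 0.048 with 1 tumor left out. For Spp1 against PBS it was 0.11 with array weights, 0.059 with gene by gene weights, 0.12 without PBS tumor 1 and 0.044 without empty framework tumor 1 (-0.25 to 0.12 with 1 tumor left out). For Arg1 against the mean of the other groups it was -0.054, -0.020, -0.035, -0.43 and -0.011 without PBS tumor 3, Free PS473 tumor 1, PS473@CPs tumor 1, empty framework tumor 3 or M5 tumor 1 (-0.43 to 0.72 with 1 tumor left out). The depth behind Cd163 was 0.5 to 371.5 fragments per tumor and that behind Nos2 17.5 to 224.5.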
